A study of Mus musculus with 384 samples.

Results

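The genes described here are 10 of the 23420 gene symbols measured: 4 annexins (Anxa1, Anxa2, Anxa5 and Anxa6), 4 S100 genes (S100a4, S100a6, S100a10 and S100a11) and 2 galectins (Lgals1 and Lgals3). They were picked by symbol with earlier results on these plates known, among them the low value of Anxa2 in the labelled-knockout CD8 plate, so their differences between plates are a description. T cells infiltrating B16F10 tumours, a transplantable mouse melanoma, were sorted from C57BL/6 mice and profiled by Smart-seq2, a plate method that amplifies full-length cDNA of each cell without molecular identifiers. There are 4 plates, a CD8 and a CD4 plate from the wild-type source WT4 and a CD8 and a CD4 plate from the source KO4, all from tumour-bearing animals. KO4 carries the genotype label IL27raKO, a knockout of Il27ra, which encodes a receptor subunit for the cytokine IL-27. Each plate holds 94 single-cell wells, 1 population library of many cells and 1 well with no cell. Plates are grouped by their titles, although the treatment label names no CD4 cells. What 4 stands for in WT4 and KO4, and whether animals were pooled, is not stated. There is 1 source per genotype, so genotype, animal and plate cannot be told apart.

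Annexins are proteins that bind phospholipid membranes when calcium is present. S100 proteins are small calcium sensors that bind other proteins once loaded, annexins among them: the S100a10 protein pairs with annexin A2 at the inner face of the plasma membrane, and S100a11 binds annexin A1. Galectins occur both inside and outside the cell, and outside they bind galactose-containing sugars on cell surface proteins. S100 and galectin genes are known in T cells for higher expression after activation than in naive cells.

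A gene at 1 FPKM or more (fragments per kilobase of transcript, scaled to library size) was called detected, and only cells with 1000 or more such genes were used. This left 72 and 77 of 94 wells in the wild-type and labelled-knockout CD8 plates and 74 and 78 of 94 in the CD4 plates. The median cell had 2530.5 detected genes in the wild-type CD8 plate and 2047 to 2243 in the other 3 plates. Cd3e was detected in 85.9 to 93.5% of cells of every plate, Cd8a in 84.7 and 81.8% of CD8 cells, and Cd4 in 89.2 and 91% of CD4 cells. Il27ra, the targeted gene, did not separate the labels: its RNA was found in 51.4 and 57.1% of CD8 cells (wild type first) and in 36.5 and 47.4% of CD4 cells. Its population level was 155.37 and 92.93 FPKM in CD8 and 244.63 and 133.37 FPKM in CD4. Which exons the knockout lacks was not stated, so these values do not check the labels. Cells with markers of melanoma, myeloid, B, NK or stromal cells or of the other T cell lineage made up 33.3 and 19.5% of the CD8 plates (wild type first) and 29.7 and 10.3% of the CD4 plates. Of 7 melanoma genes, 7, 6, 7 and 4 were detected in the 4 plates in that order, with highest summed levels of 14139, 1034, 2202 and 548.6 FPKM in a cell, and of 11 myeloid genes 9, 8, 11 and 8, with highest summed levels of 13944, 4424, 136536 and 46303.5 FPKM. Sox10 was below 1 FPKM in every cell of both labelled-knockout plates, and C1qa in all cells but those of the wild-type CD4 plate.

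The S100 members all lie on chromosome 3 in GRCm38, in close pairs: S100a4 (90603771 to 90606045) near S100a6 (90612882 to 90624181), and S100a11 (93520488 to 93526287) near S100a10 (93555080 to 93564643), all on the plus strand. Anxa5 is on the same chromosome (36448923 to 36475894, minus strand), whereas Anxa2 lies on chromosome 9 (69453620 to 69491795, plus strand) and Lgals1 on chromosome 15 (78926725 to 78930465, plus strand). RefSeq (GRCm38.p6) gave a promoter for 7 of the 10 members, all but Anxa6, S100a10 and Lgals1. The 250 bases before the start of 4 of them are printed 5′ to 3′ to set the members with a match beside a pair of S100 members without one. In them, capitals mark TGANTCA, the core of sites for AP-1, a transcription factor family used in T cell activation. The motif was searched on both strands, where its reverse reads the same. The regions are chr9:69453433-69453682 for Anxa2, chr3:93520246-93520495 for S100a11, chr3:90603520-90603769 for S100a4 and chr3:90612644-90612893 for S100a6, all on the plus strand.
Anxa2: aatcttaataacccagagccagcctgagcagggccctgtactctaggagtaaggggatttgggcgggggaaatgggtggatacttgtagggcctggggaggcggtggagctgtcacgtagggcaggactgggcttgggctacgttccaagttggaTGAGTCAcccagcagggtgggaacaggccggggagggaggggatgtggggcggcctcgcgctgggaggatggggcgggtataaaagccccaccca
S100a11: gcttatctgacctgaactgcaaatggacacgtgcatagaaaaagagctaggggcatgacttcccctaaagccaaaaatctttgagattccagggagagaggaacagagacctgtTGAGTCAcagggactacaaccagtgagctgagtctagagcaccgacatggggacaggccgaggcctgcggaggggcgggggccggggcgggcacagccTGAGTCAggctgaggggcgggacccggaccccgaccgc
S100a4: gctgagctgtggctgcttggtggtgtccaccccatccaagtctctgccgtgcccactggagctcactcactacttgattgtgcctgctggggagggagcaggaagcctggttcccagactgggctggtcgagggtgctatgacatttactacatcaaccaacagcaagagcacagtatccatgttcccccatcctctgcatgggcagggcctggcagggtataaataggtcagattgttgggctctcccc
S100a6: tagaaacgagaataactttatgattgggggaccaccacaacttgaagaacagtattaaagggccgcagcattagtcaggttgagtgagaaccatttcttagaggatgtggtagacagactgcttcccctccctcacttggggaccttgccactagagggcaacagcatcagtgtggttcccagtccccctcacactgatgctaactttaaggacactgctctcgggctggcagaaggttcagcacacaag
TGANTCA matched in 2 of the 7 promoters, at position -95 of Anxa2 and at -136 and -38 of S100a11, counted in bases from the RefSeq gene start to the first base of the match. Of 32851 RefSeq promoters of 250 bases, 6.75% held it. GGGCGG, the letters bound by Sp1-type factors, was searched on both strands as well and matched in Anxa2, S100a11 and Lgals3, against 32.7% of all promoters. A match is only a description of the letters.

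Among single cells Anxa2 was the member whose share and mean level differed most between plates, while in the population libraries Anxa1 had the wider range. In this order of plates, wild-type CD8, labelled-knockout CD8, wild-type CD4 and labelled-knockout CD4, which is kept below wherever 4 values are given, Anxa2 RNA was found in 80.6% (69.5 to 88.9), 51.9% (40.3 to 63.5), 45.9% (34.3 to 57.9) and 51.3% (39.7 to 62.8) of cells. Ranges in parentheses are 95% intervals of the share (exact, Clopper-Pearson) for counting error alone. The cells ran from 0 to 10147, 12875, 8627 and 4661 FPKM in that order, with medians of 1753, 1.80, 0 and 4.42 FPKM. The share was highest in wild-type CD8, where its interval lay above those of the other 3 plates, while the levels of single cells overlapped across all 4. The population libraries held 6431, 3153, 1217 and 1954 FPKM, and in wild-type CD8 it ranked 42nd of all genes. Anxa6, an annexin that binds membranes of the endosome and cell surface, was steadier: it was detected in 84.7, 80.5, 77 and 74.4% of cells of the same plates, with population levels of 1200, 1123, 854 and 1175 FPKM. Anxa5, whose protein binds phosphatidylserine, was detected in 45.8, 35.1, 35.1 and 47.4%, and stood at 326.84, 461.93, 204.82 and 533.97 FPKM in the populations. Anxa1, an annexin induced by glucocorticoids and a ligand of formyl peptide receptors, was sparse, detected in 2 of 72, 4 of 77, 3 of 74 and 11 of 78 cells. Its population level nevertheless reached 215.92 FPKM in labelled-knockout CD4, against 2.56 in wild-type CD4 and 5.85 and 52.9 FPKM in CD8.

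The S100 members fell into frequent and less frequent genes. S100a10 was found in 70.8% (58.9 to 81), 66.2% (54.6 to 76.6), 62.2% (50.1 to 73.2) and 73.1% (61.8 to 82.5) of cells, with population levels of 2025, 1507, 1502 and 2005 FPKM. These intervals overlap, but they cover counting error alone and do not test a difference between plates. Its median level over cells was 796.605, 297.48, 424.49 and 664.64 FPKM. S100a11 was detected in 76.4, 70.1, 64.9 and 66.7% of cells and stood at 1911, 1262, 746 and 1053 FPKM in the populations. S100a6, which binds the calcyclin-binding protein Cacybp, was detected in 55.6, 50.6, 45.9 and 65.4% of cells, and its population levels lay within 944 to 1188 FPKM. S100a4, which binds non-muscle myosin and is a known marker of effector and memory T cells, was detected in 51.4% (39.3 to 63.4), 31.2% (21.1 to 42.7), 31.1% (20.8 to 42.9) and 44.9% (33.6 to 56.6) of cells. In cells with S100a4 detected the median was 901, 503, 767 and 932 FPKM, lowest in labelled-knockout CD8. The S100a4 populations held 1387, 1320, 857 and 1347 FPKM.

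Lgals1, encoding galectin-1, was the second most abundant member in both CD8 populations and the first in both CD4 populations, at 5003 FPKM in wild-type CD8, 3096 in labelled-knockout CD8, 1707 in wild-type CD4 and 2966 in labelled-knockout CD4. It was detected in 76.4% (64.9 to 85.6), 76.6% (65.6 to 85.5), 70.3% (58.5 to 80.3) and 84.6% (74.7 to 91.8) of cells. With near-equal shares in the CD8 plates, the level differed instead: the median over cells was 1448 FPKM in wild-type and 399 FPKM in labelled-knockout CD8 cells. Lgals3, encoding galectin-3, which binds branched sugars on surface receptors, was detected in 31.9, 26, 24.3 and 24.4% of cells, and its population levels were 547.65, 305.6, 145.83 and 392.59 FPKM. Its mean over wild-type CD4 cells, 383.7 FPKM, came mostly from few cells: 5 cells held 85.9% of the sum. The highest, at 12944 FPKM, had markers of other cell types, and without all such cells the mean was 101.98 FPKM. In a population library fewer cells with a gene and less RNA per cell cannot be told apart.

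**Figure D1:**
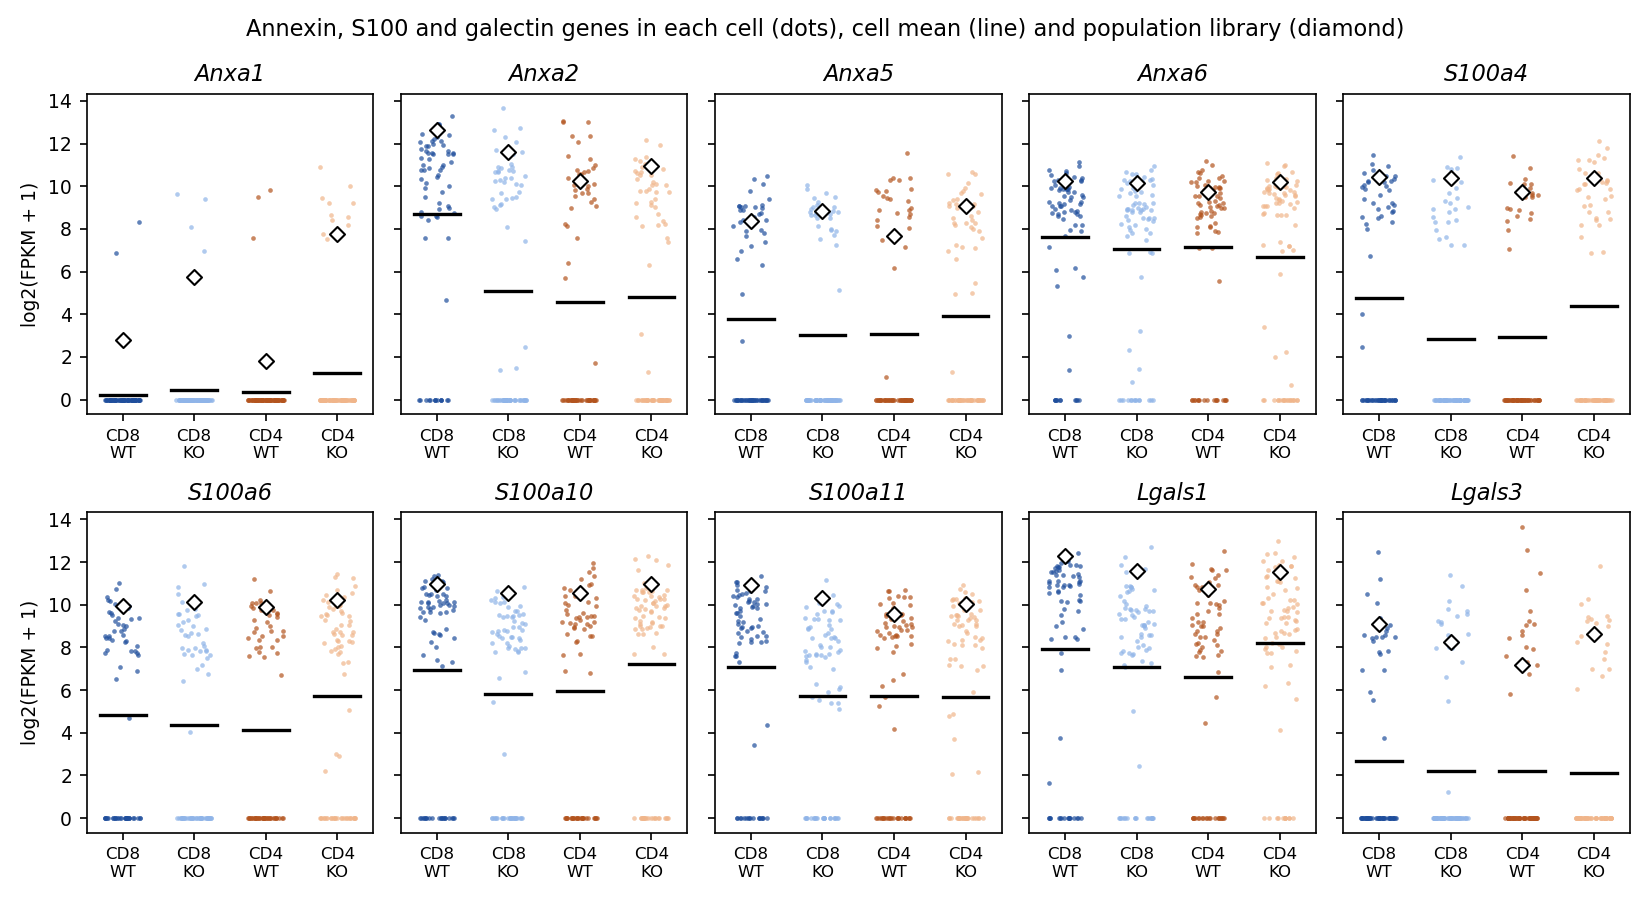
Each panel plots 1 gene as log2(FPKM + 1) on the vertical axis in each kept cell (dots) of the 4 plates, with the mean over cells (black line) and the population library (white diamond); WT is wild type and KO is labelled knockout. Cells are split into a band at 0 and a band mostly above 6, and Anxa2 has its highest cell mean, 8.69, in the wild-type CD8 plate.

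The number of members found in 1 cell differed between plates. At least 7 of the 10 were found in 51.4% (39.3 to 63.4), 28.6% (18.8 to 40.0035), 24.3% (15.1 to 35.7) and 39.7% (28.8 to 51.5) of cells. The median number per cell was 7, 5, 5 and 6. At most 2 members were detected in 18.1, 16.9, 27 and 11.5% of cells. The wild-type CD8 plate, with the highest count, also had the most detected genes. Labelled-knockout CD4 had a higher count than labelled-knockout CD8 but fewer detected genes (medians of 2091 and 2243). The part of depth was not tested here.

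Across cells, levels were compared by Spearman correlation given the number of detected genes, within each plate, among the 8 members found in 25% of cells or more in each plate, which leaves out Anxa1 and Lgals3. Cells of a plate share their library preparation and differ in depth, and the values are a description. The median over the 28 pairs was 0.27 in 72 wild-type CD8 cells, 0.23 in 77 labelled-knockout CD8 cells, 0.17 in 74 wild-type CD4 cells and 0.27 in 78 labelled-knockout CD4 cells. Over the 2717946 pairs of 2332 genes held to the same detection rule, the median was between 0.00 and 0.01 in each plate. Above 0 lay 26, 28, 24 and 28 of the 28 member pairs, against 52.1, 52.3, 51.6 and 51.5% of all pairs. The 95th percentile of all pairs was 0.23, 0.21, 0.21 and 0.20, and 18, 15, 10 and 17 member pairs lay above it.

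Lgals1 sat at the centre of these pairs. With Anxa2 its correlation was 0.30, 0.40, 0.38 and 0.41 in the 4 plates, with S100a11 0.49, 0.37, 0.32 and 0.21, and with S100a4 0.33, 0.50, 0.20 and 0.30. S100a4 and S100a6, which lie close together, had -0.04, 0.54, 0.16 and 0.32, close to 0 in wild-type CD8 cells and the highest of all 28 in labelled-knockout CD8 cells. S100a6 and S100a10, far apart on chromosome 3, had 0.27, 0.46, 0.28 and 0.40. The protein partners Anxa2 and S100a10 had 0.27, 0.19, 0.17 and 0.26, close to the median of the member pairs. Anxa5 stood apart from the others in wild-type CD4 cells, at -0.20 with S100a6 and -0.05 with S100a11. Without correction for detected genes the pair medians were 0.47, 0.25, 0.28 and 0.33, and Lgals1 itself had a correlation with detected genes of 0.71 in wild-type CD8 cells and 0.12 in labelled-knockout CD8 cells.

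**Figure D2:**
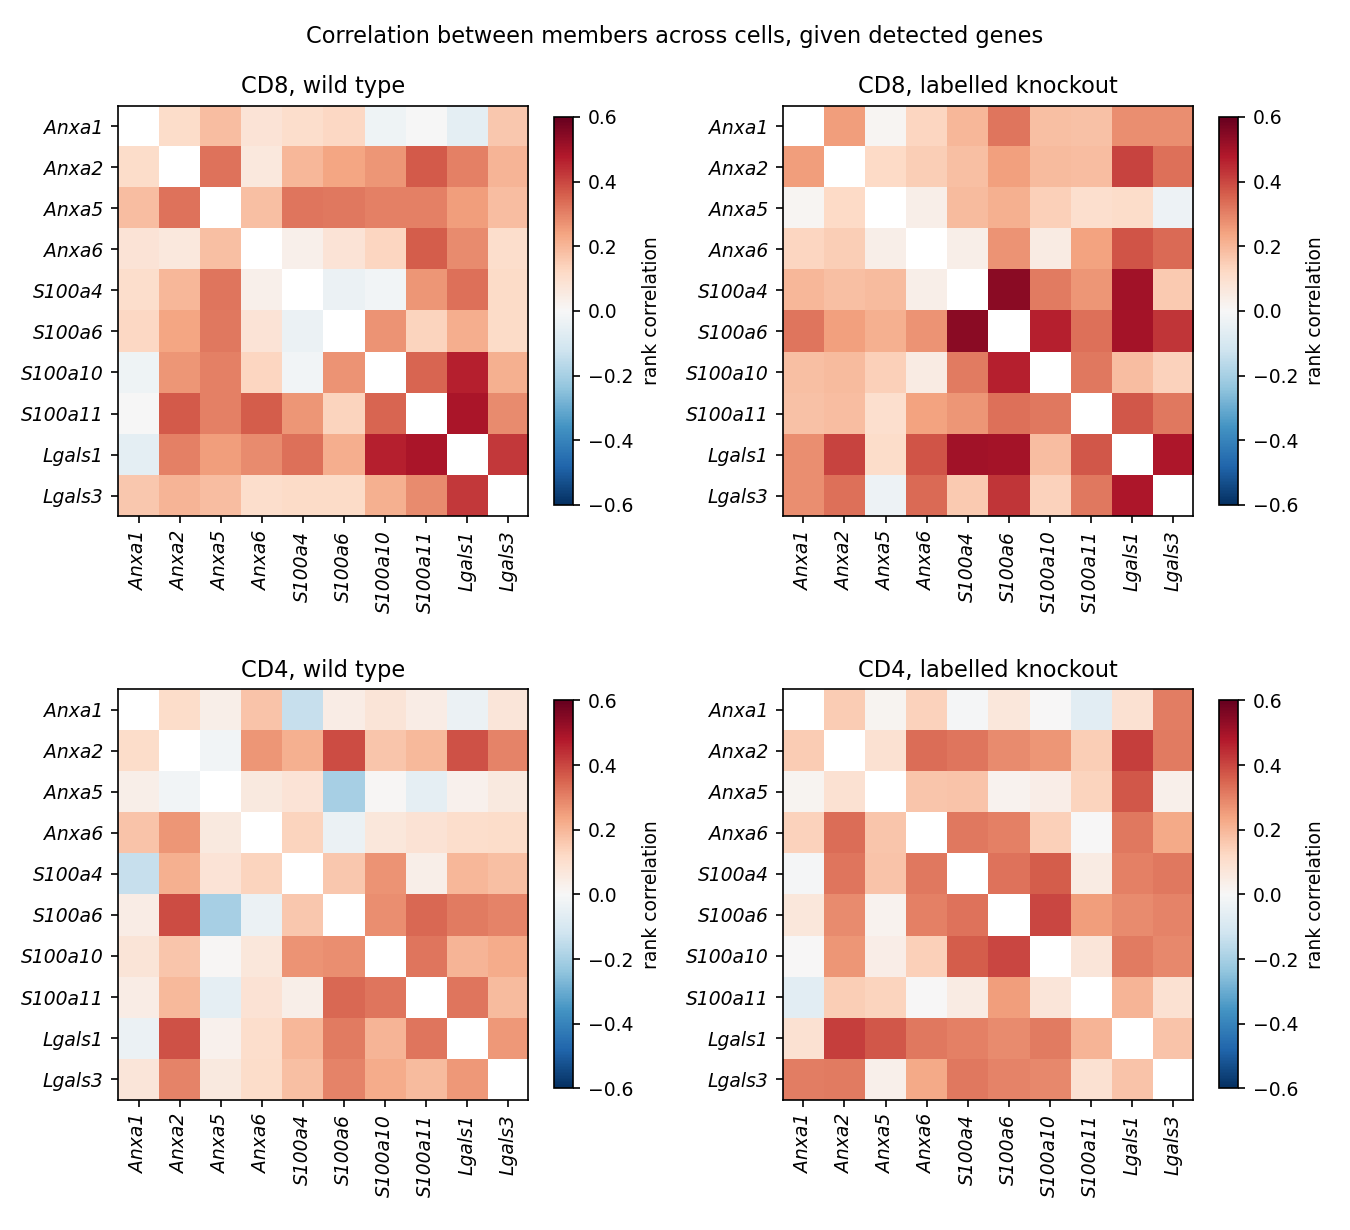
Heat maps give, for each plate, the Spearman correlation between 2 members across cells given the number of detected genes (colour scale from -0.6 to 0.6; the diagonal is blank). Red prevails in all 4 plates, and the darkest square in labelled-knockout CD8 cells is S100a4 with S100a6, at 0.54.

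Among all 2332 genes the closest to the members included cytoskeletal genes. For the mean z-score of the 8 members the highest mean correlations over the 4 plates were those of Vim (0.54), which encodes the intermediate filament vimentin, Crip1 (0.49), the actin genes Actg1 (0.48) and Actb (0.48), and Ahnak (0.45), whose large protein binds the complex of annexin A2 and S100a10. Vim had 0.42, 0.52, 0.52 and 0.68 in the single plates. Of single members, Lgals1 was closest to Actb (0.44), Actg1 (0.40) and Vim (0.39), S100a6 to Vim (0.42), S100a10 (0.35) and the actin-capping gene Capg (0.33), and S100a10 to S100a6 (0.35), Vim (0.35) and Crip1 (0.31). Anxa2 was close to Lgals1 (0.37) and Actb (0.35). S100a4 was closest to Lgals1 (0.33), Sh3bgrl3 (0.32) and Actb (0.32), and S100a11 to Lgals1 (0.35), Vim (0.33) and Actg1 (0.31). Anxa6 was closest to Actb (0.34), Nkg7 (0.32) and Prkar1a (0.32). Anxa5 had weaker neighbours, Gm2a (0.27), Fis1 (0.26) and Trpv2 (0.25). The lowest for the score were Rps19 (-0.30), Zmynd8 (-0.28), Kcnq1ot1 (-0.27), B4galnt2 (-0.27) and Dcaf10 (-0.26).

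Of 10 listed genes of naive and memory T cells, 8 could be measured in all 4 plates, and 5 of these had correlations with the score below 0 in every plate. Tcf7, a transcription factor of naive and stem-like T cells, had -0.23, -0.44, -0.39 and -0.33 in the 4 plates, and the others were Lef1, Satb1, Ccr7 and S1pr1. Of 8 listed effector genes, 5 could be measured in all 4 plates, and all 5 were above 0 in each: Nkg7 had 0.43, 0.58, 0.41 and 0.17, Gzmb, encoding granzyme B, 0.31, 0.43, 0.17 and 0.40, Id2 0.32, 0.44, 0.39 and 0.16, Ccl5 0.27, 0.42, 0.35 and 0.01, and Cxcr6 0.46, 0.51, 0.02 and 0.07. Prf1, encoding perforin and measured in the CD8 plates alone, had -0.07 in wild-type and 0.32 in labelled-knockout cells. The share of all genes on one side of 0 in every plate was not counted, so these counts have no background. Pdcd1, encoding the inhibitory receptor PD-1, had 0.52 in wild-type CD8 and 0.30 in labelled-knockout CD8 cells, and 0.29 and 0.00 in CD4 cells. Havcr2, Lag3, Tigit, Ctla4 and Entpd1, from the same list of inhibitory genes, were above 0 in every plate. In labelled-knockout CD4 cells they had 0.17, 0.19, 0.26, 0.38 and 0.48. Cd244 and Cd160 of that list could not be measured in all 4 plates.

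CD8 cells with 3 or 4 of the inhibitory receptor genes Pdcd1, Havcr2, Lag3 and Tigit detected had more of the members than cells with 0 or 1. In wild-type CD8 cells (41 against 26 cells) S100a4 was detected in 80.5 against 11.5%, Anxa5 in 70.7 against 11.5%, Lgals3 in 51.2 against 3.85%, Anxa2 in 97.6% against 13 of 26 cells and Lgals1 in 95.1 against 53.8%. In labelled-knockout CD8 cells (15 against 56 cells) Lgals3 was detected in 9 of 15 cells against 19.6%, Anxa2 in 12 of 15 against 46.4%, S100a6 in 12 of 15 against 42.9% and S100a4 in 46.7 against 26.8%. The difference of means was 1 log2 or more for 9 of 10 members in wild-type cells, against 44.7% of 7647 genes, and for 8 of 10 in labelled-knockout cells, against 38.7% of 6998 genes. None was 1 log2 or more lower, against 1.26 and 2.99% of genes. The receptor-rich cells were also deeper, with medians of 3125 against 2071 detected genes in wild-type and 3053 against 2183.5 in labelled-knockout cells. In cells matched on detected genes, the median over the members was 2.49 log2 in wild-type cells (13 against 13 cells; all genes 0.02) and 2.25 log2 in labelled-knockout cells (10 against 10 cells; all genes -0.04). There 7 of 10 members were 1 log2 or more higher in each plate, against 17.2 and 18.7% of genes, and none was 1 log2 or more lower, against 14.4 and 19.6%. S100a4 had 5.93 log2 in matched wild-type cells and 0.51 log2 in matched labelled-knockout cells.

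Detection of Tcf7 split the CD8 cells with little difference in depth in labelled-knockout cells (medians of 2249 and 2243 detected genes). There Lgals1 was detected in 63.8% of 47 cells with Tcf7 and 96.7% of 30 without, S100a4 in 21.3 against 46.7%, Lgals3 in 8 of 47 against 12 of 30 cells and S100a6 in 40.4 against 66.7%. In wild-type CD8 cells (19 with and 53 without Tcf7) S100a4 was detected in 15.8 against 64.2%, Lgals3 in 5.26 against 41.5% and Lgals1 in 63.2 against 81.1%. In each CD8 plate 5 of 10 members were 1 log2 or more lower with Tcf7, against 16.3% of genes in wild-type and 9.87% in labelled-knockout cells. Anxa6 alone was 1 log2 or more higher with Tcf7 in wild-type cells (1.09 log2), against 8.88% of genes, and no member was in labelled-knockout cells, against 6.20%. S100a6 went both ways, with 0.51 log2 in wild-type and -2.57 log2 in labelled-knockout cells.

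In CD4 cells Foxp3, the transcription factor of regulatory T cells, was detected in 27 of 74 wild-type and 37 of 78 labelled-knockout cells. S100a10 was higher with Foxp3 by 2.23 log2 in wild-type and 2.52 log2 in labelled-knockout cells, S100a4 by 1.85 and 1.71, S100a6 by 2.16 and 1.29 and Lgals3 by 1.03 and 1.30. S100a10 was detected in 83.8% of labelled-knockout cells with Foxp3 and 63.4% without. Anxa1 went the other way, detected in 0 of 27 wild-type cells with Foxp3 against 6.38% without, and in 5.41 against 21.95% of labelled-knockout cells. In wild-type cells 8 of 10 members were 1 log2 or more higher with Foxp3, against 18.6% of genes, and in labelled-knockout cells 5 of 10, against 12% of genes. None was 1 log2 or more lower in wild-type cells, against 3.84% of genes, and Anxa1 was in labelled-knockout cells (-1.44 log2), against 5.54%. Depth differed in wild-type cells, with medians of 2316 detected genes with and 1966 without Foxp3, and was 2076 and 2095 in labelled-knockout cells.

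For cycling cells the result turned on 1 marker gene. Split by detection of at least 1 of Mki67, Top2a, Birc5, Cdk1 and Ccna2, cells differed in the median over the 10 members by 0.23, 0.36, -0.04 and -0.28 log2 in the 4 plates, against 0.42, 0.33, 0.08 and 0.14 over all genes. In this split 2, 2, 2 and 1 members were 1 log2 or more higher, against 23.4, 17.9, 8 and 9.35% of genes, and 0, 0, 1 and 0 as far lower, against 3.01, 2.19, 5.88 and 3.19%. The median of the members lay below that of all genes in 3 plates and close to it in labelled-knockout CD8. Without Birc5, a version chosen after seeing the data because Birc5 is at low values in many cells, the medians were 1.56, 2.04, 1.14 and 0.93 log2, against 0.68, 0.70, 0.28 and 0.20 over all genes. There 7, 8, 5 and 5 members were 1 log2 or more higher, against 35.6, 37.9, 19.3 and 18.1% of genes, and none as far lower, against 0.458, 1.11, 2.44 and 4.28%. Cycling cells of this version had more detected genes, with medians of 3084 against 2289 in wild-type CD8 and 3011.5 against 2168 in labelled-knockout CD8. Given the number of detected genes, 11 of 12 proliferation genes had a correlation with the mean z-score of the members below 0 in wild-type CD8 cells, among them Mki67 (-0.04), Top2a (-0.19), Cdk1 (-0.22) and Ccna2 (-0.19). In labelled-knockout CD8 cells Top2a had 0.32 and Cdk1 0.14, and of the measured genes only Birc5 (-0.08) and Hmgb2 (-0.07) lay below 0. In CD4 cells the sides were mixed, with Mki67 at -0.12 in wild-type and 0.13 in labelled-knockout cells. The share of all genes with a correlation below 0 with the score was not counted.

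**Figure D3:**
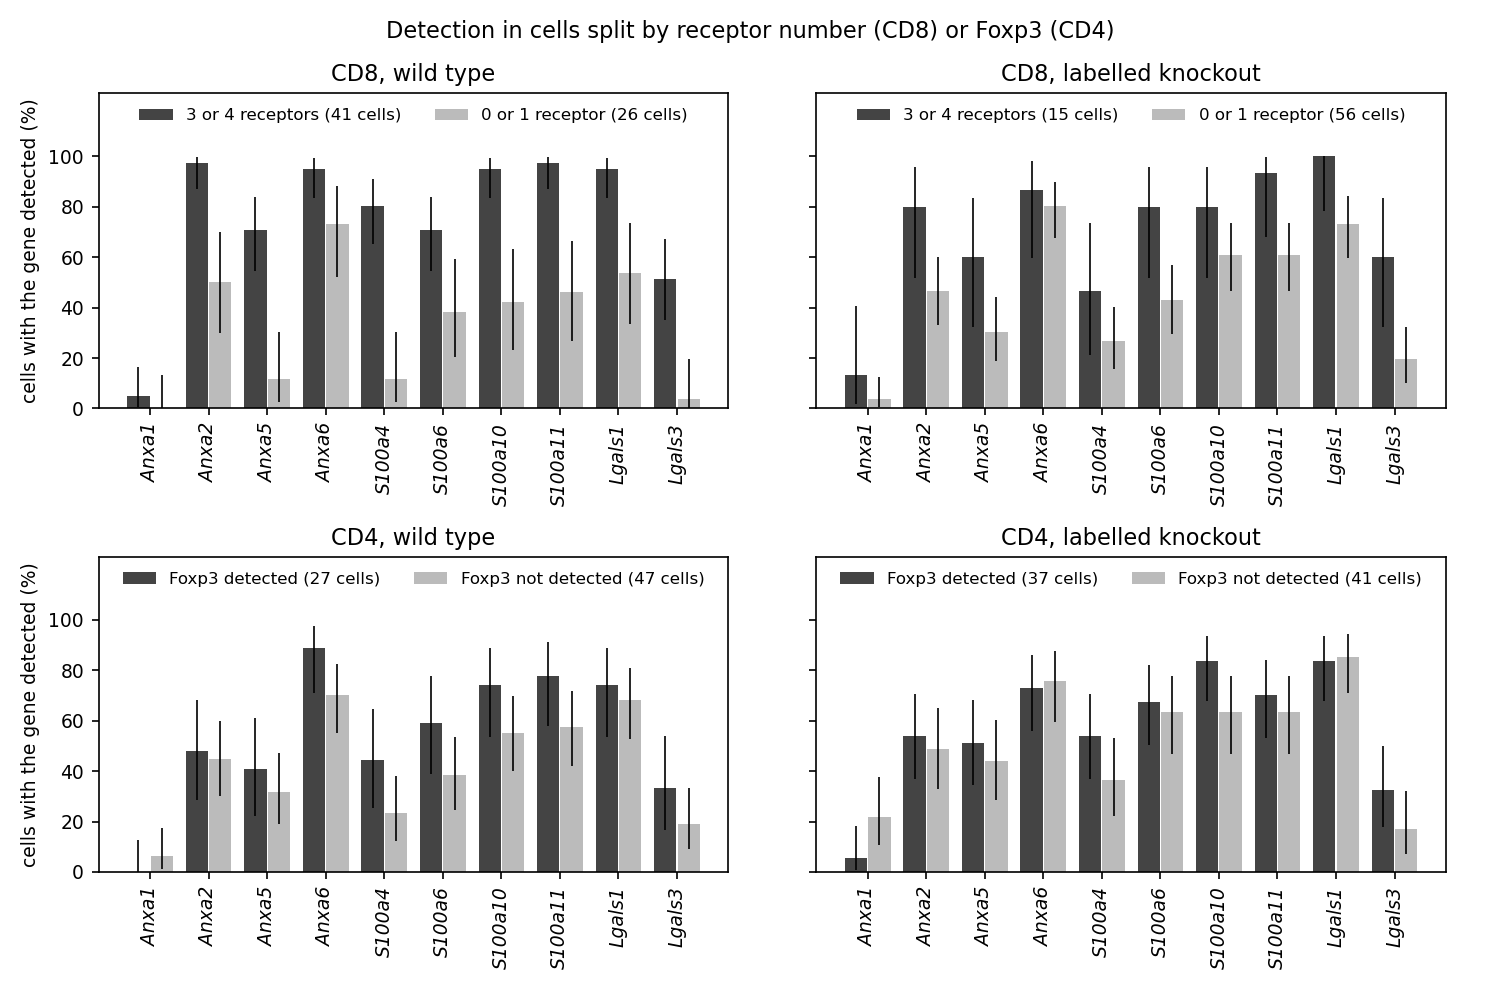
Bars give the share of cells with each gene detected (vertical axis, percent; whiskers are exact 95% intervals) in CD8 cells with 3 or 4 against 0 or 1 of 4 inhibitory receptor genes and in CD4 cells with and without Foxp3. The widest gap is that of S100a4 in wild-type CD8 cells, 80.5 against 11.5%.

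Between genotypes as labelled, the members lay lower in the knockout CD8 plate and mostly higher in the knockout CD4 plate. In CD8 cells 9 of 10 had a lower mean of log2(FPKM + 1), led by Anxa2 (5.09 against 8.69, a difference of -3.60), S100a4 (2.84 against 4.76, -1.92), S100a11 (5.75 against 7.10, -1.35) and S100a10 (5.84 against 6.93, -1.10). These 4 were 1 log2 or more lower, as were 9.19% of 8117 genes, and no member was 1 log2 or more higher, against 2.07%. Lgals1 differed by -0.85, Anxa5 by -0.77, Anxa6 by -0.57, S100a6 by -0.48 and Lgals3 by -0.48. Anxa1, detected in under 10% of cells of both plates, had 0.23. The median over the 10 was -0.81, against -0.22 over all 8117 genes. With that median below 0 most genes lay lower too, and the share of all genes on each side was not counted. The SD of log2 levels over cells was 4.55 and 5.27 for Anxa2, so single cells overlapped, and with 1 source per genotype no test was made.

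In CD4 cells the order was different. Lgals1 was higher in the labelled-knockout plate (8.22 against 6.6, 1.61 log2), as were S100a6 (5.70 against 4.13, 1.57), S100a4 (4.37 against 2.92, 1.45) and S100a10 (7.24 against 5.98, 1.26). These 4 were 1 log2 or more higher, as were 2.53% of 7063 genes, and no member was 1 log2 or more lower, against 2.51%. Anxa1 had 0.89, Anxa5 0.82 and Anxa2 0.26, whereas S100a11 (-0.06), Lgals3 (-0.09) and Anxa6 (-0.45) lay below 0. The median over the 10 was 0.85, against -0.04 over all genes.

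The population libraries had the same sides for some members and not for others. In CD8 7 of 10 were lower and 3 higher; Anxa2 had -1.03 log2 and Anxa1 2.98, each alone past 1 log2 on its side, against 12% of 11008 genes lower and 16.1% higher. In CD4 all 10 were higher in the labelled-knockout library. Anxa1 (5.93), Lgals3 (1.42) and Anxa5 (1.38) were past 1 log2, against 20.1% of genes, with none as far lower, against 18.5%. The median over the 10 was -0.26 log2 in the CD8 libraries, against 0.05 over all 11008 genes. In the CD4 libraries it was 0.67 log2, against 0. For the libraries of each lineage, the share of all genes on each side of 0 was not counted. Anxa2, S100a4, S100a10 and Lgals1 were below wild type in CD8 and above it in CD4 in cells and populations alike, which is 4 of 10 members, against 9.37% of 6641 genes. Taken in cells alone this pattern held 30.2% of genes, and in populations alone 24%. For S100a4 the CD8 population difference was only -0.07 log2. The CD4 side of Anxa2 turned to -0.63 log2 with mean FPKM taken before log2 and to -1.02 log2 in cells with 2000 or more genes, and it was -0.52 log2 among cells with the gene detected.

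Without the cells with markers of other cell types, the CD8 differences were -4.20 for Anxa2, -2.12 for S100a11, -2.11 for S100a10 and -1.84 for S100a4, and the CD4 differences were 1.51 for Lgals1, 1.64 for S100a6, 1.61 for S100a10 and 1.40 for S100a4. In cells matched on detected genes (49 against 49 in CD8) Anxa2 had -3.34 and S100a4 -1.65, whereas S100a10 came to -0.43. In matched CD4 cells (60 against 60) Lgals1 had 2.13 and S100a10 1.88.

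The CD8 plates also differed in how many cells had many inhibitory receptors, 41 of 72 in wild type and 15 of 77 in labelled knockout. Among cells with 3 or 4 receptors, 7 of 10 members were lower in labelled-knockout cells and 6 of 10 by 1 log2 or more, against 13.5% of genes, and Lgals3 was higher by 1.41 log2, against 10.5% of genes that far higher. The widest were S100a4 (4.17 against 7.41), S100a10 (7.03 against 9.48) and Anxa2 (8.58 against 10.94). Among cells with 0 or 1 receptor the side turned: 9 of 10 members were higher in labelled-knockout cells and 7 of 10 by 1 log2 or more, against 10.4% of genes, and none as far lower, against 3.06%, led by Lgals1 (6.74 against 4.54) and Anxa5 (2.68 against 0.95). Only Anxa2 stayed lower there, at 4.47 against 5.09. These low-receptor cells had medians of 2183.5 detected genes in labelled-knockout and 2071 in wild-type plates. The median difference was 0.11 log2 over all genes and 1.18 log2 over the members. Among cells with 3 or 4 receptors it was -0.10 log2 over all genes and -1.31 log2 over the members. How many of all genes lay on each side of 0 was not counted. Split by Tcf7 instead, the side did not turn. The median over the members was -0.05 log2 with Tcf7 and -0.53 log2 without it, with 5 of 10 members below 0 in each class. Anxa2 was lower in both (-3.33 and -2.56 log2) and Lgals1 slightly higher in both (0.14 and 0.37 log2). The Tcf7 classes have no background over all genes. In CD4 cells Lgals1, S100a4, S100a6 and S100a10 were higher in labelled-knockout cells both with Foxp3 (by 1.26, 1.17, 0.88 and 1.17 log2) and without it (by 1.66, 1.31, 1.75 and 0.88 log2). With Foxp3 3 of 10 members were 1 log2 or more higher, against 4.77% of genes, and Anxa6 (-1.68) and S100a11 (-1.31) as far lower, against 12.2%. Without Foxp3 4 of 10 were 1 log2 or more higher, against 5.21% of genes, and none as far lower, against 4.71%.

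**Figure D4:**
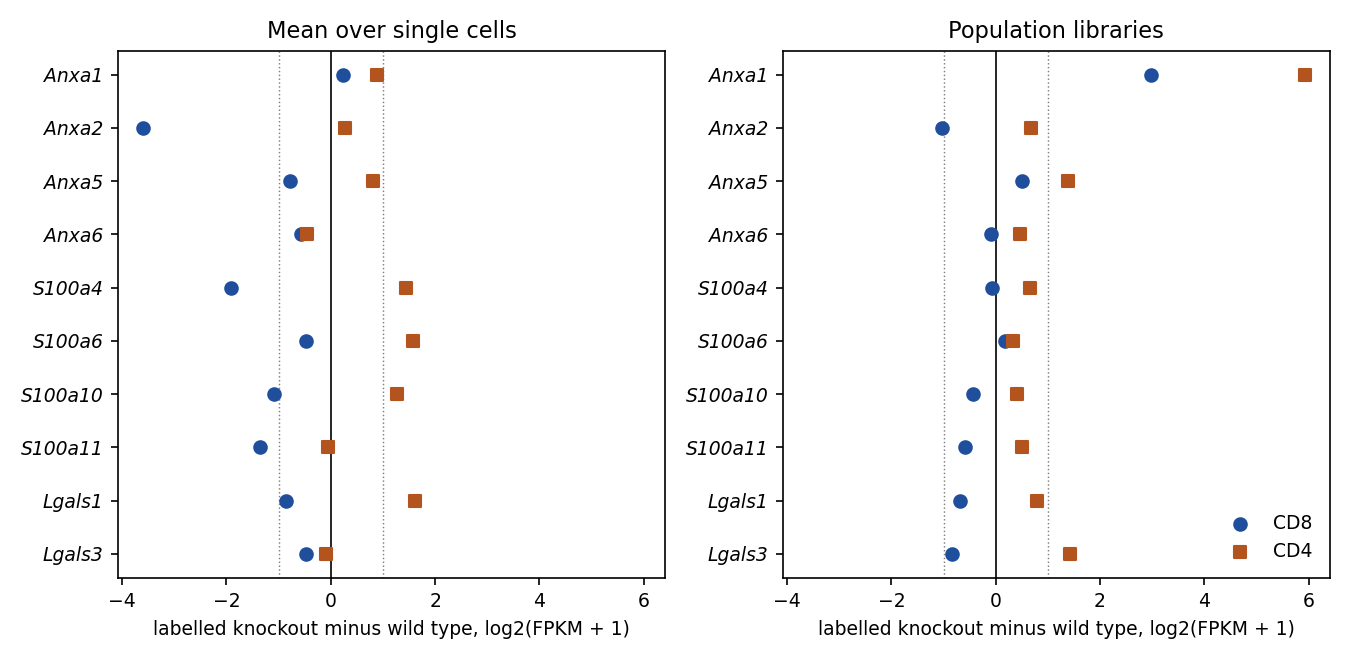
The horizontal axis gives labelled knockout minus wild type in log2(FPKM + 1) for each gene, as means over single cells (left) and in the population libraries (right), for CD8 (circles) and CD4 (squares); dotted lines mark 1 log2. In single cells Anxa2 in CD8 is farthest from 0, at -3.60, and in populations Anxa1 in CD4, at 5.93.

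The lineages were then compared by limma on 4 plate means, with the source as a block, over 8427 genes. Anxa2 was lower in CD4 by 2.20 log2 (SE 0.58, limma, Benjamini-Hochberg adjusted p = 0.00689) and was the only member called, among 6.32% of genes lower and 1.12% higher in CD4. Its difference was -4.13 in the wild-type source and -0.27 in the knockout source. Fits that left out a plate also dropped the block. In these fits it was -0.40 without wild-type CD8 and -4.00 without labelled-knockout CD8. It was -2.07 without wild-type CD4 and -2.33 without labelled-knockout CD4. The call was lost in 9 of 13 alternatives, among them the fit without the block alone (limma adjusted p = 0.198). The call thus rests on the settings, and the size of the difference on the wild-type CD8 plate. The other 9 members had differences between -0.74 and 0.48 log2 with adjusted p of 0.19 or more, and 1 of them, Anxa1, an unadjusted p of 0.0376. In the population libraries no member was called, against 0.0182% of 11008 genes in each direction. There Anxa2 had -1.55 log2 (SE 0.41, limma adjusted p = 0.17), and 2 members, Anxa2 and S100a11, had an unadjusted p under 0.05. In the single-cell fit limma set the spread of every gene by a trend over all 8427 genes. Its SEs and p-values therefore do not measure a gene's own spread between the 4 plates. The Anxa2 differences in the 2 sources, -4.13 and -0.27, lay farther apart than its SE of 0.58. In the population fit a gene's own spread was drawn toward such a trend. Only 4 plates or 4 libraries entered each fit.

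Among the other genes of the 3 families, those of the S100 family were mostly silent. Of 12 other S100 genes, 8 were not detected in any cell in either genotype comparison, among them S100a8 and S100a9, which mark neutrophils, and only S100a13 reached 10% of cells. S100a13 followed the members: it was detected in 52.8% of wild-type and 33.8% of labelled-knockout CD8 cells and in 29.7% and 39 of 78 of CD4 cells, with differences of -1.41 and 1.71 log2. Its correlation with the score was 0.26, 0.31, 0.36 and 0.26. Of 8 other annexins 3 reached 10% of cells in each comparison and none was past 1 log2, and of 8 other galectins 4 did and none was. Not detected in any cell were 3 other annexins in CD8 and 4 in CD4, and 1 and 2 other galectins. Lgals9 had plate means of 4.17, 3.84, 3.65 and 4.03 in log2(FPKM + 1). These lay above the 2.67, 2.19, 2.19 and 2.10 of the member Lgals3. Lgals4 and Lgals6 are near-identical, so their values are uncertain. Of 20 partners and receptors of the proteins, 16 reached 10% of cells in CD8, where Havcr2 (-2.75) and Lgals3bp (-1.38), whose product binds galectin-3, were lower and Ptprc (1.04), the gene of CD45, was higher. In CD4 16 did, with Vim (1.67) higher and Tln1 (-1.02), the gene of talin, lower. In the limma comparison of CD4 with CD8 plate means, Cacybp, Cd7 and Havcr2 were lower and Capn2 higher among 17 partners tested. Of all genes 6.32% were lower and 1.12% higher. Cd7, which encodes a receptor bound by galectin-1, differed by -1.89 log2 (SE 0.42, limma adjusted p = 0.000682). Havcr2 differed by -2.55 log2 in the wild-type source and 0.003 log2 in the knockout source. In the population libraries no partner was called.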

How the data were processed

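Single T cells from B16F10 tumours of wild-type and Il27ra-knockout mice, 4 population libraries and 4 no-cell wells were analysed from 1 table of 384 wells, all mapped to samples through their titles. The deposited values are FPKM with TMM normalization by the authors, per the file header; Bowtie, RSEM and build mm10 come from the submitters' processing notes, whose versions the sources used here do not state. The table gives no counts, so read depth is unknown; the number of detected genes stands in for it. RSEM estimates how reads that fit several genes are shared, so near-identical genes are uncertain.

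Genes at 1 FPKM or more were called detected, cells with at least 1000 detected genes kept, and levels averaged as log2(FPKM + 1), a scale that understates changes of low genes and mixes level with share of cells. Genotype differences have no test. CD4 and CD8 were compared with limma 3.58.1 (R 4.3.3; lmFit, eBayes with trend) on plate means of genes detected in at least 10% of cells of a plate, with Benjamini-Hochberg adjusted p under 0.05 over all genes. In data simulated on the 8427 genes of the single-cell comparison, 42% of 50 genes changed by 1 log2 and 100% of 50 changed by 2 log2 were recovered. In the population comparison 4 and 44% were. False calls numbered 14 and 3. The simulated spread depended on mean level alone, so these shares do not cover genes with a wider spread. Python 3.11.15, pandas 2.3.3 and scipy 1.17.1 served for the rest. Promoter sequences are from RefSeq and gene positions from GENCODE M21 (GRCm38).

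The source block pairs plates of the same source, WT4 or KO4, as titled. Members and gene lists were chosen with earlier results of these data known. Genes named besides members are listed partners, families or markers, the 3 nearest genes of each member, and the 5 highest and 5 lowest for the members' mean z-score. Some genes that this rule names are not reported here. A planned rule for cells with markers of other types marked nearly all cells, since Tyr is at low values in them; a rule without Tyr, Cst3 and Cd8b1 was chosen after seeing the data, as were the matched receptor split and the cycling markers without Birc5.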

Additional observations from a re-analysis of the deposited data

Results flagged for a closer look

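In 4 members the difference between labelled knockout and wild type had opposite sides in CD8 and CD4, in single cells and in population libraries alike. The gap between the CD4 and the CD8 difference in single cells was 3.87 log2 for Anxa2 (0.26 in CD4 and -3.60 in CD8; populations 0.68 and -1.03), 3.37 log2 for S100a4 (1.45 and -1.92; populations 0.65 and -0.07), 2.36 log2 for S100a10 (1.26 and -1.10; populations 0.42 and -0.43) and 2.47 log2 for Lgals1 (1.61 and -0.85; populations 0.80 and -0.69). The CD4 side of Anxa2 depended on the setting, at -0.63 log2 with mean FPKM before log2 and -1.02 log2 in cells with 2000 or more genes. The difference was not tested, since each plate is 1 sample.

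The no-cell well of the wild-type CD4 plate held Anxa2 at 3022.77 FPKM, the second highest of its 26 detected genes after Rps16 at 3377 FPKM, above the median of 0 FPKM over that plate's cells. The other 9 members were at 0 there, and all 10 were at 0 in the other 3 no-cell wells.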

How the results depend on the processing

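The planned exclusion of cells with markers of other types could not be run, since it left too few cells, and was replaced by the exclusion chosen after seeing the data. No member called between CD4 and CD8, and none past 1 log2 between genotypes, changed sign under the alternatives run. Genotype differences under 1 log2 did, among them the following. In CD4 Anxa2 (0.26) came to -0.63 with mean FPKM before log2 and -1.02 in cells with 2000 or more genes. Anxa5 (0.82) came to -0.08 with mean FPKM before log2. Anxa6, S100a11 and Lgals3, all below 0 in CD4, came to 0.46, 0.50 and 1.42 in population libraries. S100a11 (-0.06) also came to 0.01 with mean FPKM before log2. Members below 0 in CD4 numbered 3, then 1 in cells matched on detected genes and 2 without cells with markers of other types. In CD8 Anxa5 (-0.77) and S100a6 (-0.48) came to 0.50 and 0.18 in population libraries. In single cells 7.44% of genes (627) were called between CD4 and CD8. Without the replicate block, which pairs plates of a source, this was 0.831% (70 genes). It was 0.225% at pseudocount 10, 3.74% with no gene filter, 3.44% with the 25% gene filter, 0.122% in cells with 2000 or more genes, 1.98% with mean FPKM before log2 (77 higher and 90 lower, against 94 and 533) and 2.46% without cells with markers of other types. The number of members called went from 1 to 0 under each of these but the one with no gene filter. Leaving out a plate gave 0.320 to 13.7% of genes (1.69% without wild-type CD8, 13.7% without labelled-knockout CD8, 0.783% without wild-type CD4 and 0.320% without labelled-knockout CD4) and 0 to 1 member. In population libraries 0.0363% of genes (4) became 0.0182% without the block, 0% at pseudocount 0.1, 0.536% at pseudocount 10 and 4.46% with no gene filter, where 1 member, Anxa2, was called; without any 1 library it was 0%. Members 1 log2 or more lower in labelled-knockout CD8 cells numbered 4, then 8 in cells with 2000 or more genes, 2 with mean FPKM before log2 and 1 in population libraries. Members 1 log2 or more higher in labelled-knockout CD4 cells numbered 4, then 1 at pseudocount 10 and 2 with mean FPKM before log2. The median pair correlation, 0.23 as a mean of 4 plates, was 0.33 as plain Spearman. The median receptor difference in wild-type CD8 cells, 5.19 log2, was 2.49 in cells matched on detected genes. The median difference of cycling cells, 0.23, 0.36, -0.04 and -0.28 log2, was 1.56, 2.04, 1.14 and 0.93 with cycling markers without Birc5. The cause of these changes was not tested. Of single-gene values 29 fell below the threshold and 22 passed it under an alternative. With 1 plate per source and cell type and unknown read depth, no value here separates genotype from plate.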
